A study of Mus musculus with 6 samples.

Results

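Krt7, Krt8, Krt18 and Krt19, the keratins of simple epithelia, and Epcam, a surface adhesion molecule of epithelial cells, were taken as a set by their gene symbols, and all 5 were found among the 25701 genes measured. RNA-seq of polyA RNA was performed on CP cells (cardiac progenitor cells) that had been differentiated from 46C mouse ESCs, a line carrying a fluorescent reporter at Sox1. The 46C-Ctrl group comprised 3 libraries of control genotype. The other group comprised 3 libraries labelled Zhx1-KO, from 46C cells given Cas9 plasmids with guide RNAs against both ends of Zhx1, a zinc finger and homeobox gene. Both groups therefore shared the 46C background and the CP stage, and the labels gave no day or age. How many knockout clones were used was not given in the sources used here. Separate cultures are not named for the libraries either, so the p-values speak only to how these libraries spread, which can be technical. The series was designed to find genes that depend on Zhx1 together with hnRNPA1 at the CP stage, and the comparison here asked how simple epithelial genes differed between the groups.

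Keratins are intermediate filament proteins that assemble as obligate pairs of a type II and a type I chain. Krt7 and Krt8 encode type II chains, Krt18 and Krt19 encode type I chains, and Krt8 with Krt18 is the first keratin pair of the mouse embryo. Epcam encodes a membrane glycoprotein found in most simple epithelia and in ESCs, and it is lost as cells leave an epithelial state.

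The promoters of the members are shown because Krt8 and Krt18 lie side by side and differed in the size of their change, while Krt7, in the same cluster, did not pass the test. RefSeq (GRCm38.p6) gave a promoter for 4 of the 5 members, each a window of 300 bases with 250 before the gene start and 50 after it. Capitals mark matches, on either strand, to 5 motifs: TATAAA, the TATA box, GGGCGG, a GC box, CACCTG, an E-box, AACNNGTT, a grainyhead-type motif, and TGAGTCA, the AP-1 site. Krt7 is at chr15:101412153-101412452 on the plus strand, Krt8 at chr15:102004293-102004592 on the minus strand, Krt18 at chr15:102027966-102028265 on the plus strand and Epcam at chr17:87635729-87636028 on the plus strand.
Krt7: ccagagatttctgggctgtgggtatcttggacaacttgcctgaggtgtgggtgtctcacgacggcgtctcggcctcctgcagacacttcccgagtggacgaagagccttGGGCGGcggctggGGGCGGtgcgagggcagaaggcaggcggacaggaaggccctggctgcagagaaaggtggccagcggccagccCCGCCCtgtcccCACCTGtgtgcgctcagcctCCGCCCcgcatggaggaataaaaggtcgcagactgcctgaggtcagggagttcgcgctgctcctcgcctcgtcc
Krt8: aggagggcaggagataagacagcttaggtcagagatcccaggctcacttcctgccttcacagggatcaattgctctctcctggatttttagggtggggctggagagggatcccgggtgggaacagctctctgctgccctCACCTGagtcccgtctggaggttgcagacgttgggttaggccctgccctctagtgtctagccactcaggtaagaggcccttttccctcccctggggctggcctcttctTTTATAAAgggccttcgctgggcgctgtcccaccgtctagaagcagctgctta
Krt18: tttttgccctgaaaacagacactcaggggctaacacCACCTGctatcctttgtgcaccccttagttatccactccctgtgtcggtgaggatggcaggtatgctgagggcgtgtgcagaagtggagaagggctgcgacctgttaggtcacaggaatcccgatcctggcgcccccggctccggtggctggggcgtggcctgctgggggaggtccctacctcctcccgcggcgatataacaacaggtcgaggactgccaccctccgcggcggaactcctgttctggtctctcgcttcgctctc
Epcam: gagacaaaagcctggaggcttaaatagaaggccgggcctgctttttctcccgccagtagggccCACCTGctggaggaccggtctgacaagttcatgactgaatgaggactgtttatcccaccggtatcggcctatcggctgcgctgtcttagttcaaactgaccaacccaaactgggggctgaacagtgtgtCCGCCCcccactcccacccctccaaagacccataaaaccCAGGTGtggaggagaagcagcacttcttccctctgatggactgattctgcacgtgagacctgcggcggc

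CACCTG, a sequence bound by Snai and Zeb proteins among others, was found in all 4 promoters, and in 20.2% of the 32851 promoters of the same table. With the first base of the gene at 0, the matches began at -44 in Krt7, at -111 in Krt8, at -214 in Krt18 and at -187 and -19 in Epcam, the last on the opposite strand. GGGCGG was found 4 times in Krt7 and 1 time in Epcam, and in 35.7% of all promoters. TATAAA was found in Krt8, where a match on each strand overlapped near the annotated start (at -1 and -3), and in 13.6% of all promoters. AACNNGTT and TGAGTCA were in none of the 4 windows and in 4.20% and 5.20% of all promoters. GC content was 66.3% in Krt7, 58% in Krt8, 61.3% in Krt18 and 57% in Epcam. The RefSeq starts of Krt7 and Krt8 lie apart from the ends of the GENCODE genes given with the values. A match describes letters in the window and not a bound site.

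Depth was similar in the 6 libraries, at 13769967 to 15940874 counting steps each, a step being the value of a single read as judged from the values. Replicates of a group differed by a median of 0.102 to 0.139 on the log2 scale, and both values above 0.111 involved 46C-Ctrl replicate 2. Mitochondrial genes took 2.77% of that library and 1.72% to 1.87% of the other 5. Zhx1 stood at 460, 181 and 457 normalized counts in 46C-Ctrl, against 225, 325 and 308 in the Zhx1-KO-labelled libraries, with a log2 fold change of -0.25 (SE 0.35, limma adjusted p = 0.579). Without 46C-Ctrl replicate 2 it was -0.70 (limma adjusted p = 0.0121). The Zhx1 transcript therefore did not settle the labels, and where in the gene its reads lay was not tested. The paper reports that the knockout was checked in ESCs by Zhx1 mRNA and protein. The 6 CP markers, among them Hand1, Nkx2-5 and Tbx5, summed to 7770 to 8527 in 46C-Ctrl and 1081 to 1159 in the Zhx1-KO-labelled libraries, where Tbx5 averaged 1.93. Of these markers 5 were called lower, beside 26.4% of all genes tested, and 1, Isl1, was not called (log2 fold change -0.23, limma adjusted p = 0.311).

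Of the 5 members, 4 were lower in the Zhx1-KO-labelled libraries, 0 were higher and 1, Krt7, did not pass the test. Krt8 fell most, to 30.1% of its 46C-Ctrl mean, followed by Krt18 at 51.5%, Krt19 at 61.7% and Epcam at 65.6%. The call was an adjusted p under 0.05 in limma, and among all 15372 genes tested 52% were called in either direction, 26.4% of them lower and 25.6% higher as shares of the genes tested. Values are normalized counts, that is, gene counts divided by 1 factor per library, and log2 fold changes are of log2(value + 1), Zhx1-KO minus 46C-Ctrl. The RNA came from bulk cells, so fewer cells that express a gene and less RNA per cell cannot be told apart.

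Krt8, the type II partner of Krt18 (chromosome 15, 101996698 to 102004482, minus strand), measured 23858, 22720 and 25492 normalized counts in replicates 1, 2 and 3 of 46C-Ctrl. Its normalized counts were 6694, 7681 and 7290 in the Zhx1-KO-labelled libraries. Every 46C-Ctrl library was far above every Zhx1-KO-labelled library, with no overlap. The means were 24023 ± 1393 and 7222 ± 497 (SD, n = 3 each), and the log2 fold change was -1.73 (SE 0.07, 95% interval -1.89 to -1.58, limma adjusted p = 1.46e-06). Among the genes tested, 3.91% had a lower log2 fold change than Krt8.

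Krt18, the type I partner of Krt8 (chromosome 15, 102028180 to 102032027, plus strand), measured 12812, 11514 and 13748 normalized counts in 46C-Ctrl, against 6221, 6665 and 6707 in the Zhx1-KO-labelled libraries. The groups were again apart, although the lowest 46C-Ctrl library, replicate 2, stood below the other two. The means were 12691 ± 1122 and 6531 ± 269 (SD, n = 3 each), and the log2 fold change was -0.96 (SE 0.07, 95% interval -1.12 to -0.79, limma adjusted p = 2.81e-05).

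Krt19, the small type I keratin that lacks the usual tail domain (chromosome 11, 100140810 to 100148665, minus strand), measured 3611, 3797 and 3842 normalized counts in 46C-Ctrl, against 2193, 2414 and 2331 in the Zhx1-KO-labelled libraries. The gap between the groups was much wider than the range within either. The means were 3750 ± 122 and 2313 ± 112 (SD, n = 3 each), and the log2 fold change was -0.70 (SE 0.05, 95% interval -0.82 to -0.57, limma adjusted p = 3.51e-05).

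Epcam (chromosome 17, 87635979 to 87651129, plus strand) measured 3115, 3179 and 3206 normalized counts in 46C-Ctrl, against 2117, 2037 and 2082 in the Zhx1-KO-labelled libraries. Its replicates lay closest together of the 5 members, with a coefficient of variation of 1.48% in 46C-Ctrl and 1.95% in the Zhx1-KO-labelled libraries. The means were 3167 ± 46.8 and 2079 ± 40.5 (SD, n = 3 each), and the log2 fold change was -0.61 (SE 0.04, 95% interval -0.71 to -0.51, limma adjusted p = 2.6e-05).

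Krt7, a type II keratin of ducts and mesothelium (chromosome 15, 101411043 to 101430313, plus strand), measured 224, 156 and 219 normalized counts in 46C-Ctrl, against 229, 245 and 228 in the Zhx1-KO-labelled libraries. The groups did not overlap, by a narrow margin, and 46C-Ctrl replicate 2 was the low library. The means were 200 ± 37.9 and 234 ± 9.45 (SD, n = 3 each), and the log2 fold change was 0.24 (SE 0.15, 95% interval -0.11 to 0.60, limma adjusted p = 0.224). With 46C-Ctrl replicate 2 left out, Krt7 had a log2 fold change of 0.07 (limma adjusted p = 0.587). All 5 members were free of overlap between groups, 4 lower and 1 higher, and among all genes tested 60.8% were free of overlap, 30.4% lower and 30.4% higher. An exact permutation test of each member gave p = 0.1, two-sided, the smallest that 3 libraries against 3 allow.

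**Figure D1:**
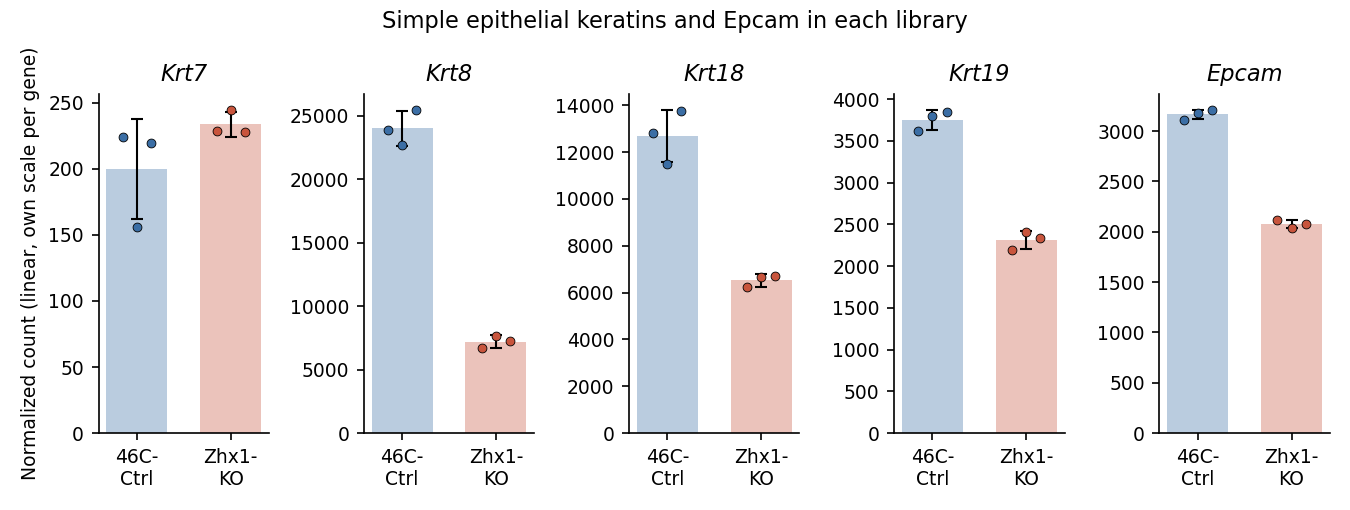
Normalized counts of the 5 members on linear axes that start at 0, with a scale for each gene. Bars are group means, error bars are SD over 3 libraries and points are libraries. Krt8, Krt18, Krt19 and Epcam stand lower in every Zhx1-KO-labelled library, while the 46C-Ctrl points of Krt7 spread from 156 to 224 and lie just below those of Zhx1-KO (228 to 245).

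Levels of different genes were compared per kb of the longest protein-coding transcript, 4094 bases for Krt7, 1958 for Krt8, 1437 for Krt18, 1576 for Krt19 and 2040 for Epcam. In 46C-Ctrl the order was Krt8 (12269 ± 712 normalized counts per kb), Krt18 (8832 ± 781), Krt19 (2379 ± 77.6), Epcam (1552 ± 22.9) and Krt7 (48.8 ± 9.26; SD, n = 3). In the Zhx1-KO-labelled libraries Krt18 came first (4545 ± 187 normalized counts per kb), then Krt8 (3688 ± 254), Krt19 (1467 ± 70.8), Epcam (1019 ± 19.8) and Krt7 (57.1 ± 2.31; SD, n = 3). In both groups the libraries of neighbours in the order did not overlap. In the Zhx1-KO-labelled libraries Krt18 ran from 4329 to 4667 normalized counts per kb and Krt8 from 3419 to 3923. The change of place between Krt8 and Krt18 rests on the transcript lengths used, and the change of their ratio does not.

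Together the 4 keratins summed to 23446, 22064 and 25078 normalized counts per kb in 46C-Ctrl, against 9196, 10153 and 9925 in the Zhx1-KO-labelled libraries, a sum 2.41 times as high in 46C-Ctrl. The make-up of that sum differed too. Krt8 was 51.9% to 52.6% of it in 46C-Ctrl and 37.2% to 38.6% in the Zhx1-KO-labelled libraries. Krt18 was 36.3% to 38.2% and 45.7% to 47.1%, and Krt19 was 9.72% to 10.9% and 14.9% to 15.1%. Krt7 never exceeded 0.608%. Type II over type I keratin per kb was 1.09, 1.12 and 1.09 in 46C-Ctrl, against 0.607, 0.646 and 0.615 in the Zhx1-KO-labelled libraries, so that type II transcripts were in slight excess in the former and in deficit in the latter at these lengths.

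**Figure D2:**
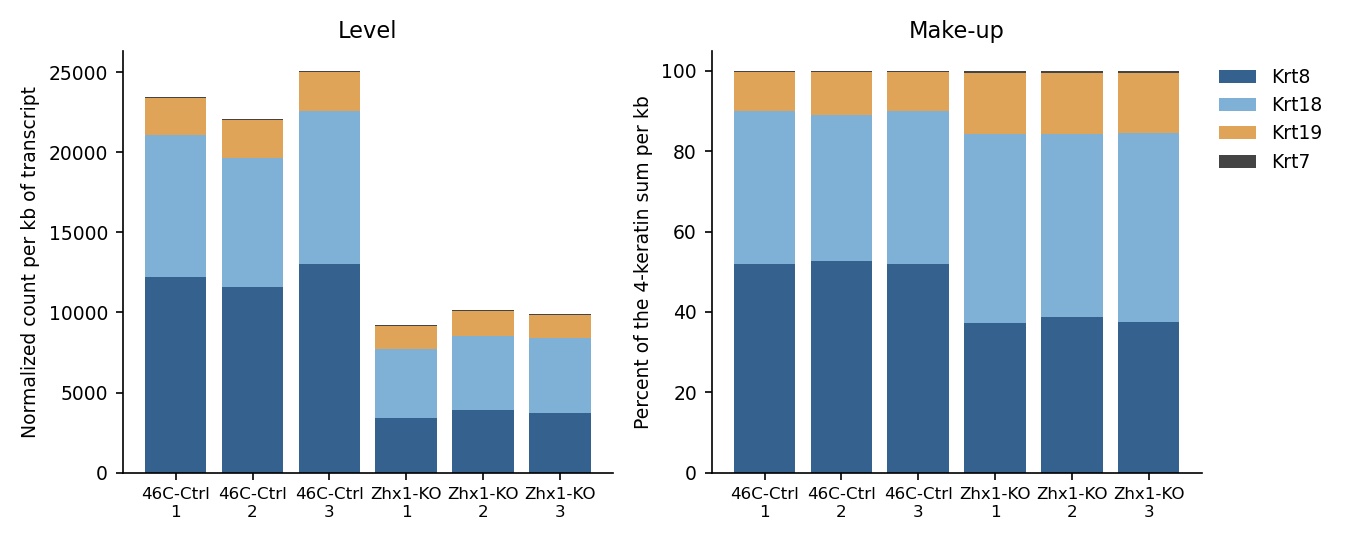
Stacked bars of the 4 keratins in each library, as normalized counts per kb of transcript (left) and as percent of their sum (right). The sum runs from 22064 to 25078 in 46C-Ctrl and from 9196 to 10153 in the Zhx1-KO-labelled libraries, and the Krt8 share lies at 51.9% to 52.6% in the former and 37.2% to 38.6% in the latter.

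Ratios taken within a library do not depend on its scaling factor, and 7 pairs of members were compared. The ratio of Krt8 to Krt18 was 1.86, 1.97 and 1.85 in 46C-Ctrl, against 1.08, 1.15 and 1.09 in the Zhx1-KO-labelled libraries, without overlap. On the log2 scale this ratio was lower by a difference of -0.78 (0.92 ± 0.05 against 0.14 ± 0.05, SD, n = 3 each; exact permutation p = 0.1). Epcam relative to Krt8 went from 0.132 ± 0.00721 to 0.289 ± 0.0258, and Krt19 relative to Krt8 from 0.156 ± 0.00930 to 0.321 ± 0.00672 (SD, n = 3 each). The smaller shifts were those against Krt18, 0.26 for Krt19 and 0.35 for Epcam on the log2 scale. Krt7 relative to Krt8 differed most, by 1.98, and relative to Krt18 by 1.20. None of the 7 pairs overlapped between groups. For each the exact permutation p was 0.1 before and after Benjamini-Hochberg adjustment over the 7, the smallest possible here. The pairs reuse the same members and largely restate their fold changes, so they are not 7 separate results. How many ratios of other genes lack overlap was not counted, and among single genes tested 60.8% were free of overlap.

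**Figure D3:**
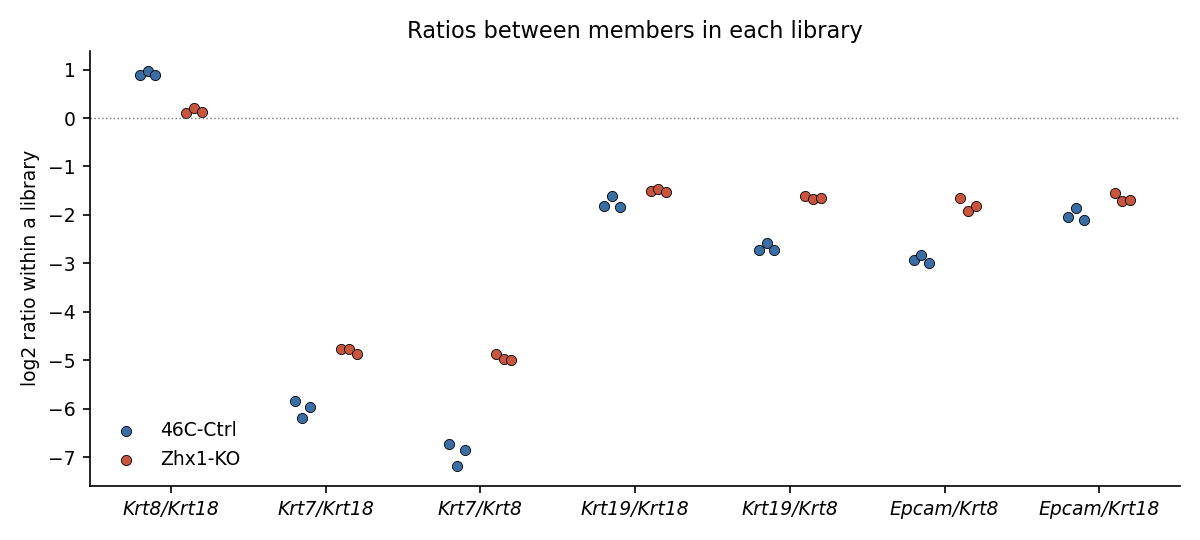
The log2 ratio of 7 pairs of members within each library, 46C-Ctrl in blue and Zhx1-KO in red, with 1 point per library. The groups are separate in every pair, with the largest differences of means for Krt7/Krt8 (1.98) and Krt7/Krt18 (1.20) and the smallest for Krt19/Krt18 (0.26).

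Keratins other than the members had low values. Of 32 keratin genes measured, 28 were not members, and of these 23 had a mean under 10 and were not tested. The highest mean among the 28 was 52.1, that of Krt10, a keratin of differentiated epidermis, and it did not pass the test (log2 fold change 0.89, limma adjusted p = 0.0671). Krt15, a keratin of basal epidermal cells, averaged 13.9 ± 4.05 in 46C-Ctrl and 33.1 ± 7.91 in the Zhx1-KO-labelled libraries (SD, n = 3 each) and was called higher (log2 fold change 1.20, limma adjusted p = 0.0239). That call is sensitive to settings, with limma adjusted p = 0.0566 under quantile normalization, 0.0540 without 46C-Ctrl replicate 2, 0.0715 without Zhx1-KO replicate 1 and 0.0836 without Zhx1-KO replicate 3. Krt80, Krt20 and Krt90 did not pass the test, with limma adjusted p of 0.0532, 0.816 and 0.299. Krt5 and Krt14, the pair that defines basal stratified epithelium, averaged at most 6.82 in either group.

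The genes around Krt8, Krt18 and Epcam had medians near 0. Krt8 and Krt18 are transcribed away from each other, with start sites 23698 bases apart, and Krt7 ends 566385 bases before Krt8. The 573 tested genes of chromosome 15 other than Krt8 had a median log2 fold change of -0.04, and the 118 within 5 Mb of Krt8 a median of 0.02. On the far side of Krt18 the nearest tested gene was Eif4b, a translation initiation factor, which rose by a log2 fold change of 0.32 (limma adjusted p = 0.000325). Krt90 and Krt80, the tested genes that flank Krt7, did not pass the test. Epcam, on chromosome 17 (median -0.05 over 733 tested genes), has Calm2, a calmodulin gene, as the nearest tested gene on its lower-coordinate side, and Calm2 did not pass the test (log2 fold change -0.15, limma adjusted p = 0.0876).

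Krt19 lay below the median of its chromosome. Of the 1184 other tested genes of chromosome 11, 675 were higher and 113 lower, beside 25.6% higher and 26.4% lower among all genes tested. Their median log2 fold change was 0.42, and for the 210 within 5 Mb of Krt19 the median was 0.46. Relative to the chromosome median the log2 fold change of Krt19 was -1.12, and 7.69% of those genes had a lower value. Krt15 and Eif1, the tested genes on either side of Krt19, were both called higher, Eif1 by 0.19 (limma adjusted p = 0.0113). Whether the shift of chromosome 11 has a part in the values of Krt19 was not tested.

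**Figure D4:**
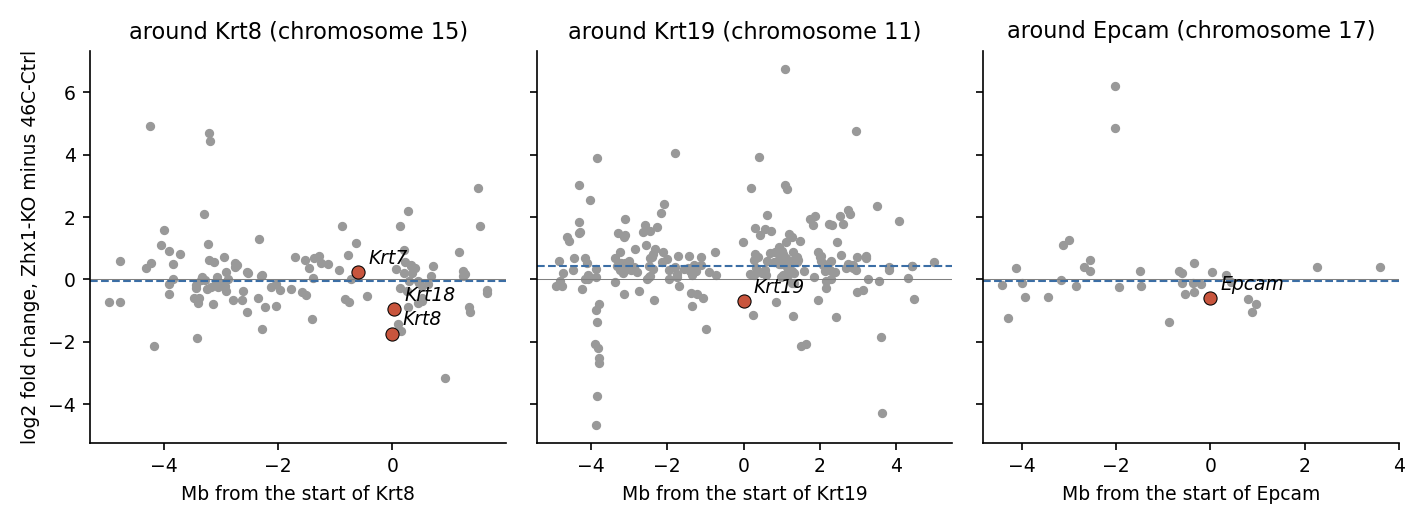
Log2 fold change (Zhx1-KO minus 46C-Ctrl) of tested genes against the distance of their start sites from that of Krt8, Krt19 or Epcam, in Mb, within 5 Mb. Members are red, other genes grey, and the dashed line is the median of the chromosome (-0.04, 0.42 and -0.05). Krt8, Krt18, Krt19 and Epcam lie below those lines.

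Most tested genes for keratin crosslinkers and desmosomes were lower as well, and which cells expressed them was not tested. Of 24 genes for keratin crosslinkers and desmosomes, 15 were tested. Of these 13 were lower, none (0) was higher and 2 remained uncalled, beside 26.4% lower and 25.6% higher among all genes tested. Their median log2 fold change was -1.0, against 0.01 for all genes tested. Dsp, which encodes desmoplakin, the link between keratins and the desmosome, fell by 2.1 on the log2 scale, from 4143 ± 410 to 961 ± 48 (SD, n = 3 each; limma adjusted p = 1.47e-06). Perp, a desmosomal membrane protein, had a log2 fold change of -1.42, Pkp2, a plakophilin, of -1.27, and Dsg2, a desmoglein, of -1.41 (limma adjusted p of 2.59e-06, 2.83e-06 and 1.25e-05). The genes outside the call were Evpl and Tchp, at -0.24 and -0.04. Genes named beyond the 4 with the smallest adjusted p of a list were picked out after their values were seen.

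The molecules that bind, cut or transmit from Epcam were mostly lower, with 12 of 18 tested genes lower, 2 higher and 4 not called (median -1.01). The shares among all genes tested were 26.4% lower and 25.6% higher. Tmprss2 and St14, surface serine proteases, had log2 fold changes of -2.00 and -1.07, and Cd9, a tetraspanin, of -1.04 (limma adjusted p of 1.11e-06, 2.42e-05 and 9.93e-06). Fhl2, a partner of the released intracellular domain, had a log2 fold change of -1.82 (limma adjusted p = 3.7e-06). The 2 higher genes were Adam10, a sheddase, at 0.39, and Ctnnb1, which encodes beta-catenin, at 0.34. Adam17 and Tspan8 were among the genes not called.

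Among epithelial junction and polarity genes, 20 of 27 tested genes passed the test as lower, 2 as higher and 5 in neither direction (median -0.74). Over all genes tested, 26.4% passed as lower and 25.6% as higher. Cldn6, a claudin of early epithelia, averaged 3788 in 46C-Ctrl and 1113 in the Zhx1-KO-labelled libraries (log2 fold change -1.77, limma adjusted p = 1.27e-06). Esrp2, an epithelial splicing regulator, had a log2 fold change of -2.32, Cldn4 of -0.96 and F11r, a tight junction adhesion molecule, of -0.76 (limma adjusted p of 1.52e-05, 1.5e-05 and 3.31e-05). Cdh1, which encodes E-cadherin, was lower by -0.80 on the same scale (limma adjusted p = 3.45e-05), between the values of Krt18 and Krt19. The 2 higher genes were Cldn3 (0.77) and Rab25 (0.52). The call of Rab25 is close to the threshold (limma adjusted p = 0.0431), and under several settings 1 gene of this list was higher.

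Of 16 tested transcription factors of epithelia, 11 were lower, 0 were higher and 5 were not called (median -1.24). For this list and the next, the shares among all genes tested were 26.4% lower and 25.6% higher. Cdx2, a factor of trophectoderm and gut, fell by 4.21 on the log2 scale, and Grhl3, a grainyhead-like factor, fell by 3.71 (limma adjusted p of 1.76e-06 and 4.28e-06). Foxa1 and Klf4 had log2 fold changes of -1.0 and -1.65 (limma adjusted p of 8.47e-06 and 0.00013). Of 11 transcription factors of the epithelial-mesenchymal transition, 7 were higher, 2 were lower and 2 were not called (median 0.60). Zeb1, a repressor of epithelial genes, rose by 1.10 and Foxc2 by 4.99 (limma adjusted p of 1.4e-05 and 1.31e-05), whereas Twist2 had a log2 fold change of -1.44 and Snai2 of -0.59.

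Intermediate filaments of other classes were split, 4 lower, 4 higher and 4 not called among 12 tested (median 0.47), shares near those of all genes tested (26.4% lower and 25.6% higher). Vim, the vimentin of mesenchymal cells, averaged 7962 in 46C-Ctrl and 3685 in the Zhx1-KO-labelled libraries (log2 fold change -1.11, limma adjusted p = 5e-06), so it was lower along with the keratins. Nes, the nestin of progenitor cells, had a log2 fold change of -0.76. Des, the desmin of muscle, rose by 0.81 and Nefm, a neurofilament gene, rose by 2.93 (limma adjusted p of 0.000364 and 7.97e-05).

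**Figure D5:**
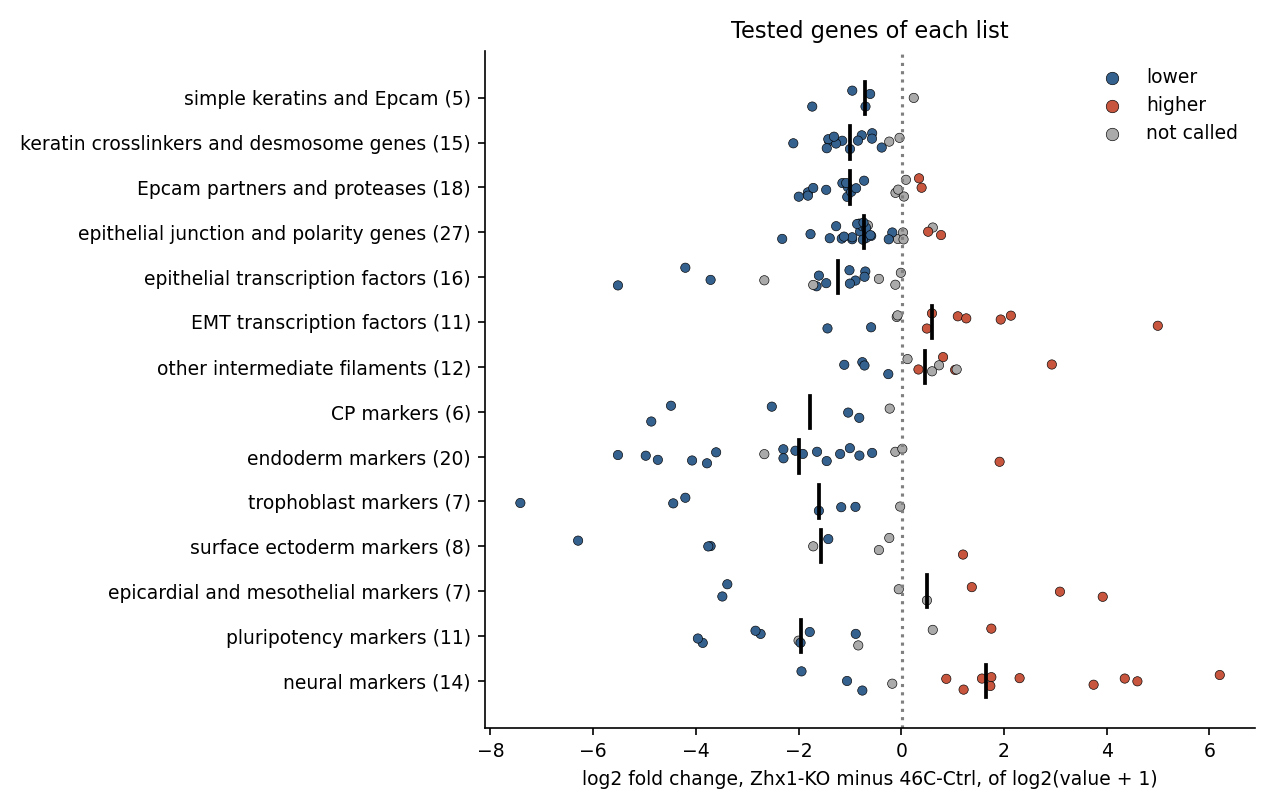
Log2 fold change (Zhx1-KO minus 46C-Ctrl) of each tested gene in 14 lists, with the number tested in parentheses. Blue points were called lower, red higher and grey not called, black bars are list medians and the dotted line is the median of all genes tested (0.01). The medians of the keratin, desmosome, Epcam partner, junction and epithelial factor lists lie between -0.70 and -1.24. Those of the endoderm, pluripotency, CP, trophoblast and surface ectoderm markers lie lower still, between -1.99 and -1.57. Medians above 0 are those of the EMT factors (0.60), other intermediate filaments (0.47), epicardial and mesothelial markers (0.50) and neural markers (1.65).

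Simple keratins and Epcam are also expressed outside CP cells, and the summed values of markers of such cells differed between the groups. Endoderm markers, 16 of 20 tested lower, 1 higher and 3 not called, summed to 15777 to 16219 in 46C-Ctrl and 6689 to 7666 in the Zhx1-KO-labelled libraries. Trophoblast markers, 6 of 7 lower, summed to 3744 to 3885 and 306 to 423, with Eomes, which also marks primitive streak, at means of 2736 and 15.3, while Elf5, Syna and Synb averaged at most 3.09. Surface ectoderm markers, 4 of 8 lower and 1, Krt15, higher, summed to 4029 to 4539 and 901 to 962. Pluripotency markers, 7 of 11 lower and 1, Sox2, higher, summed to 7780 to 8073 and 3695 to 3851. Epicardial and mesothelial markers, 2 of 7 lower and 3 higher, had a median log2 fold change of 0.50, with counts near the shares of all genes tested (26.4% lower and 25.6% higher). Their sum of 2009 to 2030 in 46C-Ctrl against 608 to 646 came mostly from Lrrn4, a mesothelial marker, whose mean went from 1590 to 141, and the other lower gene was Bnc1. Wt1 and Upk3b averaged at most 15.6 in either group. Of the genes listed, 11 of 15 trophoblast markers and 10 of 12 epicardial and mesothelial markers were among the genes measured. All endoderm, surface ectoderm and pluripotency markers listed were measured. None of the 25701 genes measured was at 0 in all 6 libraries, so markers missing from them cannot be judged here. The part of these cell types in the values of the members was not tested.

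For each member the genes most like it were taken by Pearson's r over the 6 libraries, among 10313 genes with a mean of at least 100. For the 4 called members such r mostly restates the difference between groups. For Krt8 they were S100a11, a calcium-binding protein, Trh, a neuropeptide precursor, and Suox, sulfite oxidase (r of 1.00 each), and for Krt18 they were Wdr46, Slc16a13 and Ubald1 (r of 0.999 to 1.00). For Krt19 they were Degs1, Glud1 and Src (r of 0.999 each), and for Epcam Ly6e, Grb10 and Slc39a8 (r of 1.00 each). All 12 of these genes were lower in the Zhx1-KO-labelled libraries, by log2 fold changes from -0.32 for Glud1 to -2.11 for Grb10. For Krt7 they were Ppox, Tcof1 and Calm3 (r of 0.991 to 0.995), none of which passed the test. Each had its lowest value in 46C-Ctrl replicate 2 (128, 1242 and 5107 normalized counts), as Krt7 did. Genes chosen by r with Krt7 would tend to share its low library, so this is no separate result.

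Near copies of the members were sought among annotated transcripts, since reads can be split between them. Krt18 matched the processed pseudogene Gm5200 at 90.2% identity over 1269 bases, whose values averaged 1.02 in 46C-Ctrl and 0.673 in the Zhx1-KO-labelled libraries. Krt8 matched Krt8-ps at 98.6% over 941 bases and Krt18 matched Gm17847 at 86.4% over 1065 bases. Neither of these pseudogenes was among the genes measured, so a split of reads with them could not be checked. No copy of at least 300 bases and 85% identity was found for Krt7, Krt19 or Epcam.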

How the data were processed

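CP cells were profiled by RNA-seq, with 3 control libraries (46C-Ctrl) and 3 carrying the Zhx1-KO label. The authors used cutadapt 1.18 for trimming, HISAT2 2.1.0 for alignment to GRCm38 and StringTie 1.3.4d for FPKM values, which were not used here. DESeq2 and Cufflinks appear in the submitters' processing notes as well. What the authors deposited is a signal per gene, gene counts divided by 1 factor per library. The program that counted the reads was not given in the sources used here. Each value was a whole multiple of a step per library (100% within 0.01 of a step), which served as a measure of depth, and no count test was run.

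Of 25701 genes, 15372 with a mean of at least 10 entered limma 3.58.1 (R 4.3.3). The model had a term for group and none for replicate, the variance trend was enabled, values were log2(value + 1), and p-values were adjusted by Benjamini-Hochberg across these genes. Calls were made at an adjusted p under 0.05. Levels and ratios were computed in Python 3.11.15, with exact permutation tests, near copies were found with BLAST 2.17.0, and the fit was tested on simulated data. Gene positions are from GENCODE annotation of GRCm38. To check whether replicate numbers pair the libraries, deviations from the group means were correlated. Each library was left out in turn, and other pseudocounts, filters and scalings (quantile, TMM-like), a fit with no variance trend and a replicate block were tried.

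The members and the 14 gene lists were chosen with earlier results of these data known. The text names the 5 members, every tested keratin gene, up to 4 genes per list by smallest adjusted p, the 3 genes most like each member, the nearest tested gene on each side of a member, and others picked after their values were seen. The number of per-sample columns not used was 0. Some results that this rule would name are not reported here.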

Additional observations from a re-analysis of the deposited data

How the results depend on the processing

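Over 14 alternative settings, all 56 values of the 4 called members kept their call and direction, and Krt7 stayed uncalled, its log2 fold change running from 0.07 to 0.33 with limma. The values ran from -1.78 to -1.68 for Krt8, from -1.02 to -0.90 for Krt18, from -0.73 to -0.60 for Krt19 and from -0.62 to -0.51 for Epcam. Of 448 list counts, 424 stayed within 1.5 times. Higher junction and polarity genes numbered 1 in place of 2 with no filter, with quantile normalization, without a trend and with the replicate block, and 1 to 3 with a library left out. Higher surface ectoderm markers numbered 0 in place of 1 with a mean of at least 50 or quantile normalization, and 0 to 1 with a library left out. Higher keratins outside the members numbered 2 in place of 1 with a pseudocount of 10 or no filter, 0 with a mean of at least 50 or quantile normalization, and 0 to 2 with a library left out. Lower epicardial and mesothelial markers numbered 4 in place of 2 with no filter, and higher pluripotency markers 2 in place of 1 without a trend. The filters change which genes were tested, and otherwise the cause was not tested. Libraries of the same replicate number showed no sign of pairing (correlations of deviations of 0.00419, -0.0690 and 0.000587, against -0.0967 to 0.103 between other numbers). Whether libraries were prepared in pairs cannot be told from such values. With the replicate block 7374 genes were called in place of 7998. Count tests on whole reads had been listed and were not run. With 3 libraries per group, small differences such as that of Krt7 were not resolved.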
